A study of Homo sapiens with 2 samples.

Results

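Transcript levels of 9 genes that place, copy, read and oxidise DNA methylation were examined in a recombinant U2OS line. The genes were chosen by name: the methyltransferases DNMT1, DNMT3A and DNMT3B, the cofactor DNMT3L, the paralogs UHRF1 and UHRF2, and the dioxygenases TET1, TET2 and TET3. All 9 were found among 28960 genes that could be named and measured in both libraries. U2OS is a human osteosarcoma cell line. The derivative used here, G1S-CCPM-Cas9, carries a marker of the G1 to S transition of the cell cycle and makes the nuclease Cas9 from a CAG promoter, and was grown under geneticin. Poly(A) RNA of untreated cells was sequenced as 2 replicates of 1 group, so there was no contrast between conditions. Both libraries are of the marker and Cas9 line, and no parental U2OS library was analysed here. Separate cultures for the replicates are not stated, and their spread may therefore be technical.

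In mammals, methyl groups are placed mainly on cytosines of CpG dinucleotides. DNMT1 copies the pattern to the new strand behind the replication fork, where UHRF1 binds hemimethylated DNA and recruits it, while DNMT3A and DNMT3B methylate DNA that carried no mark before. The TET enzymes oxidise methylcytosine stepwise, which leads to its loss by dilution at replication or by excision.

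Levels are given as FPKM from the authors' tables, a density of sequenced fragments scaled to transcript length and library size, so that genes can be set side by side. Detection means an FPKM of at least 1. The library named replicate 1 had 11896 detected genes and replicate 2 had 11954, and coverage per FPKM was 5.78 and 5.57, so depth was nearly equal in relative terms while the absolute depth is unknown. Of 9 osteoblast markers 5 were detected in both libraries, and SP7, COL1A2, BGLAP and IBSP were under FPKM 1. Of 6 blood and endothelial markers CD68 alone was detected, at 3.54 and 2.33.

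Of the 9 genes, 7 were detected in both libraries, beside 40.2% of all named genes. The maintenance pair DNMT1 and UHRF1 stood far above the others. DNMT3B, TET3, TET2, UHRF2 and DNMT3A followed within a narrow band, TET1 lay at the detection threshold and DNMT3L was at or near 0.

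**Figure D1:**
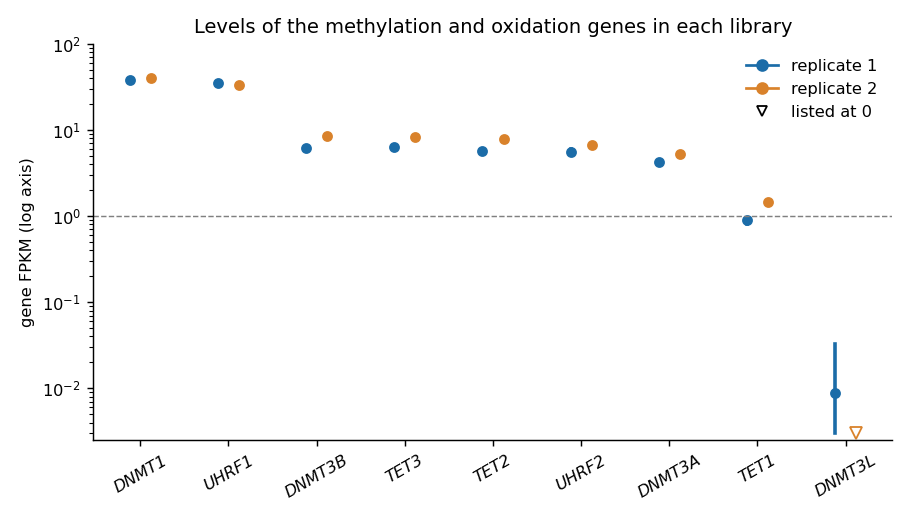
Gene FPKM (log axis) of the 9 genes in replicate 1 and replicate 2, ordered by mean, with the deposited confidence bounds as vertical lines, which are mostly shorter than the points; the dashed line marks FPKM 1 and the open triangle a value listed at 0. DNMT1 and UHRF1 sit between 33.4 and 40.7, a group of 5 genes between 4.25 and 8.61, and TET1 at 0.890 and 1.45.

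DNMT1, the maintenance methyltransferase (chr19:10133345-10195079, minus strand, GRCh38), was at FPKM 38.2 in replicate 1 and 40.7 in replicate 2, a mean of 39.5 ± 1.72 (SD, n = 2). The deposited bounds of the libraries overlapped. This level exceeded that of 82.8% of the genes detected in both libraries, whose median was 11.9.

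UHRF1, a ubiquitin ligase that binds hemimethylated CpG (chr19:4909498-4962154, plus strand), was at 35.1 in replicate 1 and 33.4 in replicate 2, a mean of 34.2 ± 1.22 (SD, n = 2). The bounds of its libraries overlapped too. DNMT1 was above UHRF1 by 1.09 times in replicate 1 and 1.22 times in replicate 2, and their bounds did not overlap within either library. When only reference transcripts were summed, leaving out those that Cufflinks assembled, this ratio was 0.870 in replicate 1 and 1.22 in replicate 2, so the order of DNMT1 and UHRF1 depends on an assembled transcript in replicate 1.

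Most DNMT1 signal was assigned to transcripts with a start inside the annotated first intron. The reference transcript XM_006722681.1, which starts at position 10194626 of chromosome 19, was at FPKM 26.0 in replicate 1 and 35.2 in replicate 2. With an assembled transcript of replicate 1 that has the same start, this start held 88.1% of DNMT1 FPKM in replicate 1 and 86.7% in replicate 2. It lies 194 bases downstream of the end of exon 1 of NM_001130823, and GENCODE 29 has 1 DNMT1 transcript that starts within 10 bases of it. The start at 10195079, used by both NM transcripts, held 11.9% and 13.3%.

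The second difference among DNMT1 transcripts was exon 5 of NM_001130823, a coding exon of 48 bases. In replicate 2, NM_001130823.1 was at FPKM 5.43 and NM_001379.2, which lacks the exon, at 0. In replicate 1, NM_001130823.1 was at 0 and NM_001379.2 at 4.56, and an assembled transcript was at 7.71. The assembled transcript is 5235 bases long, which equals XM_006722681.1 with 48 bases added. If it holds the exon, transcripts with exon 5 made up 20.2% of DNMT1 FPKM in replicate 1 and 13.3% in replicate 2. The files list no exon structure for assembled transcripts, so this rests on length alone.

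UHRF1 had a single active entry. NM_001048201.1 held 100% of the gene's FPKM in each library, and NM_013282.3, which starts at a different first exon and is annotated with a coding sequence of 2418 rather than 2379 bases, was listed at 0 in both. The 250 bases before the start nearest to NM_001048201.1 are shown because all UHRF1 signal was assigned to it (chr19:4909251-4909500, plus strand, RefSeq, GRCh38.p14), with CpG dinucleotides in capitals.
UHRF1 promoter: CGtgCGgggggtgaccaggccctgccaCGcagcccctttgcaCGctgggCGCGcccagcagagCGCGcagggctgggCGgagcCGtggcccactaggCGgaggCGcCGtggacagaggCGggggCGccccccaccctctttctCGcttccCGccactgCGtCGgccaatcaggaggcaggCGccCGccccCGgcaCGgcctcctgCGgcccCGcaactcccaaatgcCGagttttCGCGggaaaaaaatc
This window holds 28 CpG, above 84.1% of 35116 promoter windows, whose median is 11. It also contains GCGGGAAA, the reverse complement of TTTCCCGC. The search covered the E2F-type words TTTGGCGC, TTTCCCGC, TTTCGCGC and TTTGCCGC on both strands. One of them occurs in 2.79% of all windows and in 2 of 19 windows of these genes, both of UHRF1. The other UHRF1 window with a word has no transcript above 0 starting within 50 bases, and neither do the DNMT1 and TET3 windows. The DNMT3B window lies before the internal start alone, and DNMT3L has no window. The main listed starts of DNMT1, DNMT3B and TET3 therefore have no window of their own, and absence of a word there was not shown.

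UHRF2, the paralog of UHRF1 (chr9:6413151-6507054, plus strand), was at 5.61 in replicate 1 and 6.71 in replicate 2, a mean of 6.16 ± 0.779 (SD, n = 2). UHRF1 was 6.26 times as high as UHRF2 in replicate 1 and 4.97 times in replicate 2, or 8.21 and 8.38 times with reference transcripts alone. The reference transcript NM_152896.2 was at 4.28 and 3.98, and the other 5 reference transcripts were at 0 in both libraries. The rest of UHRF2 was an assembled transcript over the 3′ end, at 1.33 in replicate 1 and 2.73 in replicate 2, or 23.7% and 40.7% of the gene. It reaches over the last 6 of 16 annotated exons. Its start and its length both differed by 153 bases between the libraries. The higher gene value in replicate 2 was thus a higher value of this short assembled transcript, since the full-length one was lower there.

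DNMT3A, a de novo methyltransferase (chr2:25228255-25342590, minus strand), was at 4.25 in replicate 1 and 5.28 in replicate 2, a mean of 4.77 ± 0.726 (SD, n = 2). Its bounds did not overlap between the libraries. NM_022552.4, which encodes the long form DNMT3A1, was at 3.01 and 3.61. The other 8 reference transcripts were at 0 in both libraries, among them NM_153759.3, which encodes the shorter form DNMT3A2 known from germ and embryonic stem cells.

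Assembled transcripts of DNMT3A ended at position 25228255 in replicate 1 and 25228259 in replicate 2, where no reference transcript ends. The nearest reference 3′ end, at position 25228552, belongs to annotated transcripts that were at 0 in both libraries. In each library 1 of the assembled transcripts shared the start of NM_022552.4 at position 25341915. It was at FPKM 0.672 in replicate 1 and 0.710 in replicate 2. Its 3′ end lay 4706 and 4702 bases beyond that of NM_022552.4, and its length equalled that of NM_022552.4 plus this extension in each library. Transcripts with the distant 3′ end held 29.2% of DNMT3A FPKM in replicate 1 and 31.7% in replicate 2. The start at 25341915 held 86.6% and 81.8%. The remainder came from 1 assembled transcript per library with the internal start of a reference transcript. In replicate 1 this start was position 25252315, the same base as that of NM_153759.3, with 13.4% of the gene's FPKM. In replicate 2 it was position 25277235, that of XM_006711958.1, with 18.2%. Only the starts match. The replicate 1 transcript, at 8244 bases, does not equal NM_153759.3 (3608 bases) plus the extension of 4706 bases. The replicate 2 transcript, at 8256 bases, does not equal XM_006711958.1 (8033 bases) with its 3′ end moved to 25228259.

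The 250 bases before both kinds of start are printed so that the long-form start and the DNMT3A2 start can be compared (RefSeq, GRCh38.p14, minus strand, CpG in capitals). The first window is chr2:25341926-25342175 and the second chr2:25252316-25252565.
DNMT3A long-form promoter: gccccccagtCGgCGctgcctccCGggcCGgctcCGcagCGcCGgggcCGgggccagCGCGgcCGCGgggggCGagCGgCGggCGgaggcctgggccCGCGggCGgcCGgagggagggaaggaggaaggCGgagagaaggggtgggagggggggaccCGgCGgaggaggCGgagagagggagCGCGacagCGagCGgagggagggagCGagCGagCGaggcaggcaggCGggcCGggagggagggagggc
DNMT3A internal promoter: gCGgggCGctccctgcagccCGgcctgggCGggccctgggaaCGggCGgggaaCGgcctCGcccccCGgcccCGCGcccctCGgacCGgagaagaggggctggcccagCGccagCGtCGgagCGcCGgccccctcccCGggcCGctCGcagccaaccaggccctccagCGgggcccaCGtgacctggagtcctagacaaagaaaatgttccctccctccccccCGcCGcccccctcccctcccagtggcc
The long-form window has 33 CpG, above 91.9% of all windows. The internal window has 25 CpG, above 78.4% of them. Transcripts starting within 50 bases of the long-form start were at FPKM 3.69 in replicate 1 and 4.32 in replicate 2, and those of the internal start at 0.569 and 0.

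DNMT3B, the second de novo methyltransferase (chr20:32762385-32809356, plus strand), was at 6.25 in replicate 1 and 8.61 in replicate 2, a mean of 7.43 ± 1.67 (SD, n = 2). It was above DNMT3A in each library, by 1.47 and 1.63 times. DNMT1 was 6.12 times as high as DNMT3B in replicate 1 and 4.72 times in replicate 2, and 8.99 and 7.70 times as high as DNMT3A. With reference transcripts alone DNMT1 was 4.88 and 9.53 times as high as DNMT3B, so the order of the libraries turned, and DNMT3B was 2.07 and 1.18 times as high as DNMT3A.

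The full-length form DNMT3B1, encoded by NM_006892.3, was listed at 0 in both libraries, as was NM_175848.1. The leading reference transcript was NM_175849.1, at 4.14 in replicate 1 and 2.75 in replicate 2. It encodes DNMT3B3, a form known to lack part of the catalytic domain and described as inactive. In the annotation it lacks exons 10, 21 and 22 of NM_006892. These exons are shown because presence or absence of them separates the DNMT3B transcripts (GENCODE 29, GRCh38, plus strand, lower case). Exon 10 is chr20:32793536-32793595, exon 21 is chr20:32805338-32805407 and exon 22 is chr20:32806209-32806327, and all of them are coding.
DNMT3B exon 10: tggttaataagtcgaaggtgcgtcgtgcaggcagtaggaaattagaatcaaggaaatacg
DNMT3B exon 21: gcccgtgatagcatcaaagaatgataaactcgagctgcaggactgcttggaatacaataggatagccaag
DNMT3B exon 22: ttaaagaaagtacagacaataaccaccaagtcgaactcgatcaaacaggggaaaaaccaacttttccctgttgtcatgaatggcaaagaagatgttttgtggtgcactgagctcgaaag
Every DNMT3B reference transcript above 0 in either library lacks exon 10 in the annotation. Exons 21 and 22 together have 189 bases. In replicate 1 they belonged to NM_175850.2 alone, which starts at an internal first exon and was at FPKM 2.11, or 33.8% of the gene.

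In replicate 2 NM_175850.2 was at 0, and NM_001207055.1, which lacks exons 5, 10, 21 and 22, was at 1.51. An assembled transcript with the start of NM_175850.2 was at 1.53. Its length of 4066 bases equals that of NM_175850.2 without exons 21 and 22. A further assembled transcript over the 3′ end was at 2.82, and its listed length of 1940 bases equals the stretch from its start to the end of exon 21 plus exons 22 and 23. Read in this way, transcripts with exons 21 and 22 made up 33.8% of DNMT3B FPKM in replicate 1 and 32.7% in replicate 2. No listed transcript with these exons was above 0 in both libraries. The shares rest on unlike entries, a transcript of 4255 bases in replicate 1 and a 3′ fragment of 1940 bases in replicate 2. The fragment starts at position 32805182, before exon 21, so its length includes sequence upstream of that exon. FPKM of such a fragment is not comparable with that of a full transcript, so closeness of the shares does not show a stable use of the exons. The structures of the assembled transcripts are inferred from length and ends, and the tables hold no counts of reads over splice junctions.

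DNMT3L, which has no catalytic activity and stimulates DNMT3A and DNMT3B in germ cells (chr21:44246339-44262216, minus strand), was at FPKM 0.00872 in replicate 1, with bounds of 0 and 0.0326, and at 0 in replicate 2. Coverage times length over its transcripts came to 86.2 bases in replicate 1, against 791244 bases for UHRF1. It was the lowest of the 9 in each library, and no ratio to it is given because of the listed 0.

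**Figure D2:**
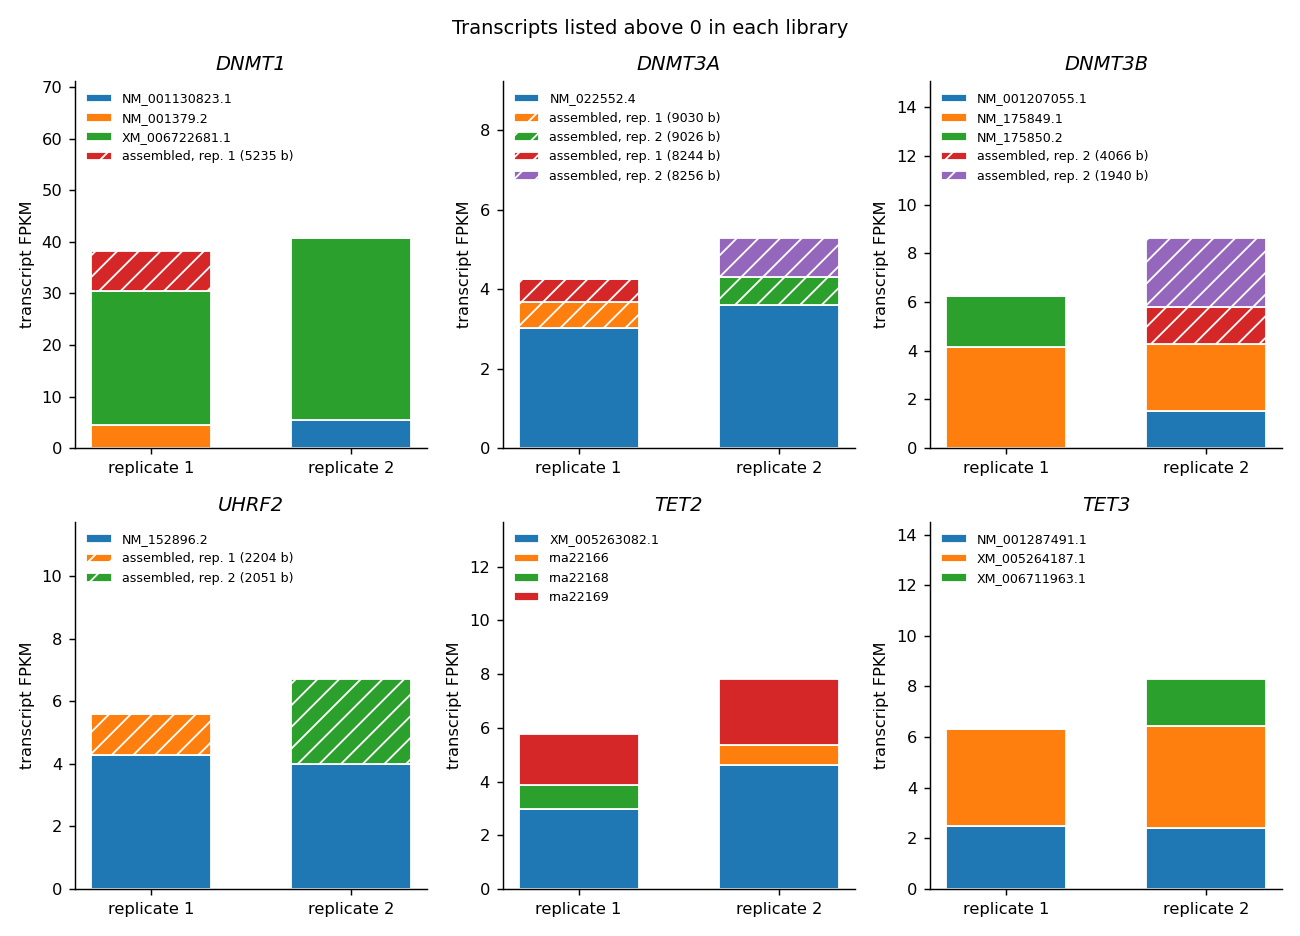
Stacked transcript FPKM of 6 genes in each library, with 1 colour per listed transcript in a panel and hatching for transcripts assembled by Cufflinks, named by replicate and length in bases (b). NM_152896.2 of UHRF2 is at 4.28 and 3.98 and NM_022552.4 of DNMT3A at 3.01 and 3.61, while DNMT3B is split over different entries in each, with NM_175849.1 at 4.14 and 2.75.

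Of the TET enzymes, TET3 and TET2 were near DNMT3B and TET1 was far lower. TET3 (chr2:73985084-74108176, plus strand) was at 6.32 in replicate 1 and 8.29 in replicate 2, a mean of 7.31 ± 1.39 (SD, n = 2). TET2 (chr4:105145875-105279803, plus strand) was at 5.77 and 7.82, a mean of 6.79 ± 1.45 (SD, n = 2). TET1 (chr10:68560360-68694482, plus strand) was at 0.890 and 1.45, a mean of 1.17 ± 0.397 (SD, n = 2). All 3 were higher in replicate 2, and none of the bounds overlapped between libraries. TET2 was 6.49 times as high as TET1 in replicate 1 and 5.39 times in replicate 2, and TET3 was 7.11 and 5.71 times as high.

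TET1, the only TET gene with a single listed transcript (NM_030625.2), was detected in replicate 2 alone at the threshold of FPKM 1. Its lower bound was above 0 in both libraries, at 0.818 and 1.36. It lay above only 0.627% of the genes detected in both libraries. That set holds 40.2% of all named genes and leaves out TET1 itself, so a place near its bottom follows from the threshold. The 250 bases before its start are printed for comparison with UHRF1 (chr10:68560087-68560336, plus strand, RefSeq, GRCh38.p14, CpG in capitals).
TET1 promoter: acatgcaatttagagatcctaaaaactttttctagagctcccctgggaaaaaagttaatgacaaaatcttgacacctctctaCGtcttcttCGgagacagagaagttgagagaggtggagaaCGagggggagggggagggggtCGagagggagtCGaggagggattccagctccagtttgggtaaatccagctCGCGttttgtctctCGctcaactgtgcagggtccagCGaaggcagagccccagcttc
The window has 9 CpG, above 45.9% of all windows, against 28 before UHRF1.

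TET2 transcripts differed at the 3′ end. Those with the full 3′ end held 66.9% of TET2 FPKM in replicate 1 and 68.7% in replicate 2, led by XM_005263082.1 at 2.97 and 4.62. These shares pool unlike entries. Within them rna22168 was at 0.889 in replicate 1 and 0 in replicate 2, and rna22166 at 0 and 0.748. Both have the same ends but lengths of 9230 and 9533 bases, so TET2 entries differed inside the gene as well. A reference entry without an accession, rna22169, held 33.1% and 31.3%. It ends at position 105272743, within exon 10 (105272564 to 105272918 on chromosome 4), before the last coding exon. NM_017628.4, whose annotated product lacks the catalytic domain, was at 0 in both libraries with the other 2 transcripts that end before exon 6, and their upper bounds were at most 0.00625. Of 2 TET2 start windows with RefSeq sequence, the one within 50 bases of all active transcripts has 34 CpG and the other, with 0 FPKM in both libraries, has 10. Other windows went the other way. UHRF1 windows with 32 and 41 CpG and a TET3 window with 37 had 0 FPKM starting within 50 bases. The DNMT3B window before the internal start has 3 CpG, with FPKM 2.11 in replicate 1 and 1.53 in replicate 2. A link between CpG count and level was not tested.

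TET3 was spread over 3 starts. XM_005264187.1 was at 3.82 and 4.03 and NM_001287491.1 at 2.50 and 2.40, so each of these differed little between the libraries. XM_006711963.1, which starts further downstream, was at 0 in replicate 1 and 1.86 in replicate 2. The gap of TET3 between the libraries was thus mainly that of the last transcript.

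Across all 9 genes, 41 reference transcripts were listed. Of these 10 were above 0 in both libraries, 9 in 1 of them and 22 in neither. UHRF1 had all its FPKM in 1 of its 2 listed transcripts, while TET1 has a single listed transcript, so its share was fixed. In the order DNMT3B, TET3, TET2 and UHRF2 the values of each neighbouring pair overlapped over the libraries, so neighbours did not differ beyond that spread. Within libraries, DNMT3B was under TET3 in replicate 1 and above it in replicate 2. For this pair with reference transcripts alone, DNMT3B was under TET3 in both. It was at 6.25 against 6.32 in replicate 1 and 4.27 against 8.29 in replicate 2. TET3 was 1.10 and 1.06 times as high as TET2, with bounds apart in replicate 1 alone, and TET2 was 1.03 and 1.16 times as high as UHRF2, with bounds apart in replicate 2 alone. TET3 was above UHRF2 with bounds apart in each library, at 6.32 against 5.61 in replicate 1 and 8.29 against 6.71 in replicate 2. UHRF2 was above DNMT3A in each library by 1.32 and 1.27 times, with no overlap of bounds within either. DNMT3A was above TET1 by 4.78 and 3.64 times.

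The libraries were then compared with each other, using log2 of (FPKM + 1) in replicate 2 over replicate 1, a scale that understates the difference of low genes. A gene counted as differing at an absolute log2 ratio of 1 or more with bounds apart. None of the 8 genes at FPKM 1 or more in a library did (0 of 8), beside 1.01% of all genes so compared. No p-value can be had for 1 group of 2 libraries. Of the 8 genes 7 were higher in replicate 2, against 44% of all genes. Bounds were apart for 6 of the 8, against 56.4% of all genes. All 6 were higher in replicate 2, against 39.3% of the genes with bounds apart and 22.2% of all genes compared. The ratios ran from -0.07 for UHRF1 through 0.09 for DNMT1 and 0.22 for UHRF2 to 0.38 for TET1, 0.38 for TET2 and 0.41 for DNMT3B, with 0.26 for DNMT3A and 0.34 for TET3. Without a pseudocount TET1 was at 0.71, the highest of the 8, and DNMT3B at 0.46. The median with the pseudocount was 0.30. The median of all 12214 genes was -0.04, with an SD of 0.56 and quartiles of -0.25 and 0.13.

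Transcript length and GC content moved with these ratios. Over all genes the median ratio was -0.24 in the 2883 genes of shortest transcripts (median 1433 bases) and 0.12 in the 2883 of longest (6410 bases), and across genes, which are not independent replicates, Spearman's rho was 0.47 with length and -0.58 with GC content. Among reference transcripts that could be named, the longest of TET1, TET2, TET3 and DNMT3A have 9584, 9780, 11388 and 8887 bases. XM_005264187.1 of TET3, with 11886 bases, did not enter this length. With the trend removed, TET1 was at 0.03, TET2 at 0.04, DNMT3A at 0.18 and TET3 at 0.17. DNMT3B, with 4336 bases, was at 0.53, the highest of the 8, UHRF1 turned from -0.07 to 0.12, and the median of the 8 was 0.15. Over the 11532 genes of the fit the median with the trend removed was 0.002, with an SD of 0.41. Summed over reference transcripts alone, DNMT3B was at 6.25 in replicate 1 and 4.27 in replicate 2, a ratio of -0.46, so its direction between the libraries depends on whether assembled transcripts are counted. UHRF2 turned from 0.22 to -0.08 in the same way.

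**Figure D3:**
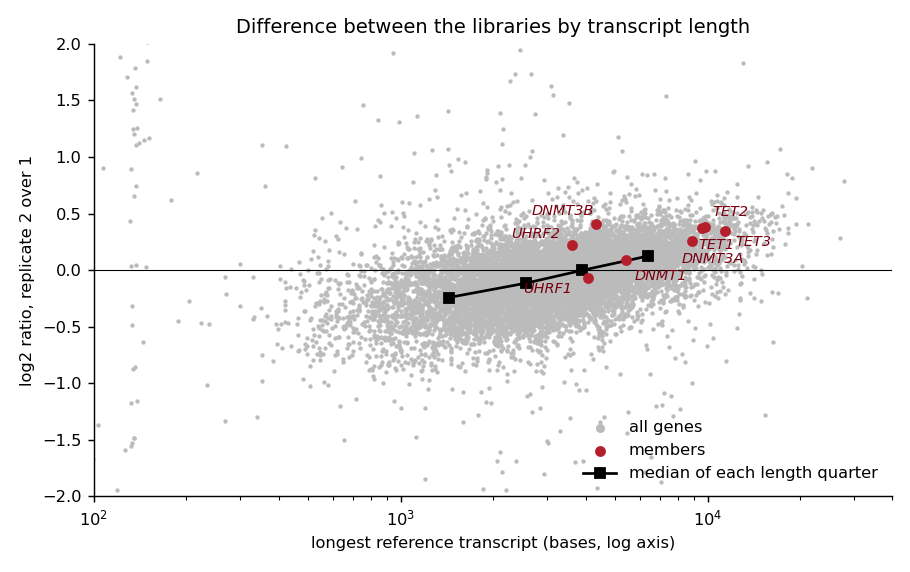
Log2 ratio of replicate 2 over replicate 1 against the longest reference transcript that could be named (bases, log axis) for 11532 genes in grey, of which 113 lie beyond the plotted range of the ratio, with 8 of the examined genes in red and the medians of 4 length bins as black squares. The TET genes lie at the long end at 0.34 to 0.38, and UHRF1 is the only red point under 0.

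Further genes of the pathway were taken from 11 lists with 94 entries. Of these 88 could be measured and 70 were detected in both libraries, beside 40.2% of all named genes. No gene of these lists differed between the libraries by the rule above, beside 1.01% of all genes compared. With so low a share the absence of a differing gene says little about the lists. Among partners of maintenance methylation 7 of 8 were detected. The sliding clamp PCNA was at 207 ± 4.11 (SD, n = 2), PCLAF, a PCNA-bound substrate of UHRF1, at 71.4 ± 9.26, the ligase LIG1 at 49.2 ± 0.613 and the deubiquitinase USP7 at 39.3 ± 3.25. HELLS, a chromatin remodeller, was at 7.31 ± 0.859 and its partner CDCA7 at 10.2 ± 0.716. DPPA3, an oocyte factor that inhibits UHRF1 in the mouse, was at 0.0156 and 0.0162.

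All 8 genes listed as readers of methylated CpG or their relatives were detected, with a list median of 11.1. MBD3, which has the domain of this family but does not selectively bind methylated CpG in mammals, was at 35.4 ± 10.4, MBD1 at 19.5 and 18.0, and MBD4, which is also a glycosylase, at 10.7 and 13.4. All 6 measured readers of unmethylated CpG were detected as well, with CXXC1 at 11.6 and 10.2, KDM2B at 10.6 ± 0.315, KMT2B at 9.02 ± 0.742 and KMT2A at 8.99 ± 2.30. CXXC4, a regulator of TET2, was lowest at 1.63 ± 0.149. KDM2A was left out for a failed estimate.

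All 11 genes for excision of oxidised or deaminated bases were detected. TDG, the glycosylase that removes the oxidation products made by TET enzymes, was at 7.88 in replicate 1 and 9.01 in replicate 2, a level like those of TET2 and TET3. APEX1, which cuts the abasic site, was at 211 and 183, PARP1 at 62.4 ± 2.31, UNG at 30.3 ± 4.91 and SMUG1 at 19.5 ± 3.13. Among 10 cytosine deaminases 5 were detected, with APOBEC3C at 91.7 ± 16.3 and APOBEC3B at 29.2 ± 6.63 highest, then APOBEC3F at 4.73 ± 0.362 and APOBEC3H at 1.66 ± 0.379. APOBEC2, APOBEC3A and APOBEC3G were under FPKM 1 in both libraries, and APOBEC1 was listed at 0. The APOBEC3 genes are close copies, and the counting could have split their reads.

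Of 10 genes of the methyl donor cycle 7 were detected. AHCY, which removes the inhibitory product of methylation, was at 248 ± 58.8, and its relative AHCYL1 at 58.5 ± 1.74. MAT2A, which makes the methyl donor in most tissues, was at 52.1 ± 1.62 and its regulatory subunit MAT2B at 27.4 ± 0.0530, while its liver counterpart MAT1A was at 0.115 and 0.119. BHMT was at 0 and 0.0118 and GNMT at 0.590 and 0. All 9 genes tied to the TET cosubstrate were detected. SDHB was at 87.5 ± 15.3, SDHA at 71.9 ± 7.60 and FH at 57.8 ± 2.44. Of the isocitrate dehydrogenases, IDH3A was at 22.8 ± 2.02, IDH1 at 21.6 ± 0.387 and IDH2 at 12.3 and 10.2, and OGT, a glycosyltransferase that binds TET proteins, was at 21.8 ± 4.07.

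All 8 measured genes for the histone methylation read by DNMT3 and UHRF proteins, or for its recruitment, were detected. TRIM28 was at 112 ± 19.7, NSD3 at 31.0 ± 9.31, EHMT2 at 23.4 ± 3.20 and SUV39H1 at 20.5 ± 3.75. NSD1 and NSD2 were left out for a failed estimate. The tRNA methyltransferase TRDMT1, a relative of the DNMT family, was at 4.80 ± 0.368.

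Of 8 germline genes known to be silenced by promoter methylation in somatic cells, 1 was detected. MAGEA1 was at 77.7 in replicate 1 and 69.4 in replicate 2. The other 7 were under FPKM 1 in both libraries. The lowest of them were DAZL and SYCP3, listed at 0 in both, and SYCP1, at 0.00840 and 0. Of 9 measured imprinted genes 7 were detected, with SNRPN at 68.9 ± 12.1, PLAGL1 at 23.4 ± 0.362, PHLDA2 at 9.27 ± 3.06 and IGF2 at 4.12 ± 0.561. MEST and DLK1 were listed at 0. These values are RNA levels, and DNA methylation itself was not measured.

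**Figure D4:**
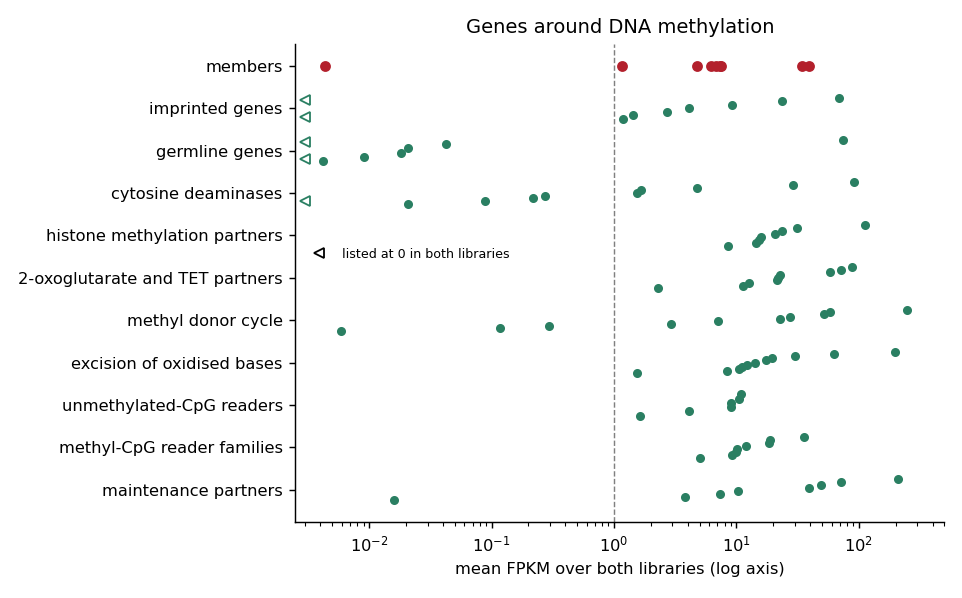
Mean FPKM over both libraries (log axis), 1 point per gene, for 10 of the lists and for the 9 examined genes in red; open triangles are genes listed at 0 in both libraries and the dashed line is FPKM 1. Most lists lie to the right of the line, and among the 8 germline genes only MAGEA1, at 73.6, does.

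Genes that overlap the 9 loci could add reads if strand was not used. The library kit keeps strand, per the labels, but the strand setting of the quantification is not given in the sources used here. GENCODE 29 places an antisense RNA over DNMT3L, UHRF2 and TET2 and a short unclassified RNA over TET3 on the opposite strand. On the same strand, which no strand setting can separate, lie the processed pseudogenes COX20P1 and RPS3AP37 within TET1 and the long noncoding RNA AC073046.1 near the first TET3 start. No level could be assigned to any of these. The pseudogenes TET1P1 on chromosome 13 and UHRF2P1 on chromosome X are processed copies that could share reads with TET1 and UHRF2, and they could not be measured by name either.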

How the data were processed

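Poly(A) RNA of 2 replicate libraries of 1 untreated group was analysed. Per the submitters' processing notes the build was GRCh38 and the tools named were FastQC 0.11.2, Trimmomatic 0.32, Bowtie2 2.2.3, TopHat2 2.0.13 and Cufflinks 2.2.1. Neither settings nor the release of the annotation is given in the labels. The authors deposited FPKM with confidence bounds for genes and transcripts, and coverage for transcripts, per the file headers. Assembled transcripts differ between the libraries' tables.

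Transcripts were named by RefSeq accession (NCBI table for GRCh38.p14, then GENCODE 29) or by the name in the table. The locus FPKM as deposited, with assembled transcripts, served as the gene level. In loci with several symbols the reference transcripts were summed without bounds, and genes with a failed status were left out. Locus starts count from 0, and 1 was added. Depth is known in relative terms only, from coverage per FPKM over transcripts of 100 bases or more. The deposited bounds do not include the spread between libraries. The trend with log10 length and GC content was fitted by least squares with linear and squared terms, with GC content from GENCODE 29. Exon structures came from GENCODE 29 through its RefSeq cross-references.

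The genes and lists were chosen with earlier results of these data known. Named were all 9 genes and, per list, up to 4 genes of highest mean and those under FPKM 1 in both libraries (a count and the 3 lowest where over 6). A few items that the rule covers are not reported here. Named transcripts are each gene's leading reference transcript and those of 10% or more of its reference total. HELLS, CDCA7, CXXC4, TDG, IDH1, IDH2, OGT, further transcripts and the groupings by exon, start and end were chosen after their values were seen. The tools were matplotlib 3.10.9, scipy 1.17.1, numpy 2.4.6 and pandas 2.3.3 under Python 3.11.15. The rule for differing genes was tested on simulated data.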

Additional observations from a re-analysis of the deposited data

How the results depend on the processing

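The count of genes detected in both libraries was 7. It was 8 at FPKM 0.5 or with a lower bound above 0, 6 at FPKM 5, 7 with reference transcripts alone, and 7 to 8 when leaving out each replicate in turn. No gene counted as differing under any of the 4 alternatives tried, which were a pseudocount of 0.1, rescaling to a median ratio of 0, no filter on low FPKM and a 1.5-fold threshold. The 1.5-fold threshold was tried with the pseudocount of 1 kept. Without a pseudocount TET1 was 1.63 times as high in replicate 2 as in replicate 1, with bounds apart. The count higher in replicate 2 was 5 to 8 of 8 over the alternatives, lowest with reference transcripts alone and highest with the length and GC trend removed. Without either replicate 7 to 9 of the 9 genes kept their rank, and 6 did with reference transcripts alone. The median share of the leading transcript was 68.7%, 63.8% to 69.4% when leaving out each replicate, and 92.9% among reference transcripts alone, since assembled transcripts then leave the total. Of 67 alternatives for single genes 5 moved the value beyond the spread between libraries, all with reference transcripts alone: the mean FPKM of DNMT1 (35.6), DNMT3A (3.31), DNMT3B (5.26) and UHRF2 (4.13), and the ratio of DNMT3B (-0.46). The 67 include means without either replicate, which could not move beyond that spread, so the count says little about robustness. Ratios of UHRF2 (0.22 to -0.08) and DNMT1 (0.09 to 0.40) also changed with reference transcripts alone but were not counted as moved. No paired analysis was possible because there is 1 group. How Cufflinks divides reads among transcripts limits every transcript value, and the tables hold no read counts.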
